A study of Mus musculus with 60 samples.

Results

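The genes described here are members of cytochrome P450 families 2, 3 and 4 in mouse liver, without 12 members that were left out by name: Cyp2e1, Cyp2b10, Cyp3a11, Cyp3a13, Cyp2c29, Cyp2c37, Cyp2c50, Cyp2c55, Cyp4a10, Cyp4a14, Cyp4a12a and Cyp4a12b. Members were taken by symbol (Cyp2, Cyp3 or Cyp4, a lower-case letter and a number, pseudogenes left out), a rule written with earlier results of these data known. Of 67 matching features 12 were excluded, which left 55 of the 21115 features on the arrays. They fall into 18 subfamilies, of which Cyp2c and Cyp2d hold 9 members each, Cyp4f 8, Cyp2j 6, Cyp3a 5 and Cyp2b 4. All 55 were tested, with no filter on low values.

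Liver RNA of 60 mice, each hybridised to its own array, was measured after 2,3,7,8-tetrachlorodibenzo-p-dioxin (TCDD), the dioxin that binds the aryl hydrocarbon receptor (AHR). Per the labels, the mice were male C57BL/6J, 12 to 15 weeks old, and belonged to 3 transgenic lines named rWT, DEL and INS that carry variants of the receptor. The labels do not define the variants, the promoter that drives the transgene or the state of the mouse's own receptor. Each mouse received 1 gavage of corn oil or of TCDD, at a dose in µg/kg of 125, 250, 500 or 1000, and was sampled 96 hours later. The corn oil groups held 5 mice per line. In rWT the 4 doses, from the lowest to the highest, held 3, 3, 4 and 2 mice. In DEL they held 4 mice each, and in INS 4, 4, 4 and 5.

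P450 enzymes are haem proteins of the endoplasmic reticulum that insert oxygen into steroids, fatty acids, bile acids, vitamins and drugs, using electrons passed on by P450 reductase and cytochrome b5. Families 2 and 3 are large in rodents, with tandem gene clusters whose liver members often differ between the sexes under the control of growth hormone. Family 4 enzymes hydroxylate the far end of fatty acids and of leukotrienes. The AHR is best known for raising family 1, of which Cyp1a1 is the standard readout.

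The values are log2 expression values from robust multi-array averaging (RMA), which gives no call of presence or absence. Near-identical paralogs, above all within Cyp2b, Cyp2c, Cyp2d and Cyp3a, may share probe signal, so a single member's value in those clusters is uncertain. Array means followed the line: rWT arrays averaged 6.01 to 6.07, DEL arrays 6.23 to 6.30 and INS arrays 5.58 to 5.74, so TCDD effects are given within a line. Cyp1a1 rose in all 3 lines, by 6.19 ± 0.19 (SE) in rWT, 4.80 ± 0.18 in DEL and 4.85 ± 0.18 in INS on the log2 scale. Albumin (Alb) averaged 13.6 over the arrays, and all 10 hepatocyte markers were measured. In bulk liver, fewer cells of a type and less RNA per cell cannot be told apart.

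4 rWT arrays went against their label. They are replicates 3 to 5 of the corn oil group and replicate 4 of the 500 µg/kg group. Xist, the X-inactivation RNA of female cells, read 10.7 to 11.4 on them, and 2.41 to 3.44 on the 56 others. Eif2s3y, Uty and Kdm5d, which are Y-linked, were all lower on these 4 arrays than on any other. The rWT results that turn on the controls are therefore given with all 17 arrays and again without these 4, which leaves corn oil replicates 1 and 2 and 11 treated arrays.

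Members of the Cyp4f subfamily responded in opposite directions. The promoters of 2 members that fell (Cyp4f14, Cyp4f15) and of both that rose (Cyp4f16, Cyp4f18) are therefore shown. Cyp4f18 lies on chromosome 8, apart from the cluster on chromosome 17 that holds the others. Each is the 250 bases before a RefSeq gene start (build GRCm38.p6), 5′ to 3′ on the gene's strand. Capitals mark the AHR core motif GCGTG (or its reverse complement, CACGC) and the CCAAT box (CCAAT, or ATTGG). For Cyp4f14, the most upstream of its listed starts is shown. The windows lie at chr17:32917357-32917606 on the minus strand (Cyp4f14), chr17:32685409-32685658 on the plus strand (Cyp4f15), chr17:32536307-32536556 on the plus strand (Cyp4f16) and chr8:72009627-72009876 on the minus strand (Cyp4f18).
Cyp4f14: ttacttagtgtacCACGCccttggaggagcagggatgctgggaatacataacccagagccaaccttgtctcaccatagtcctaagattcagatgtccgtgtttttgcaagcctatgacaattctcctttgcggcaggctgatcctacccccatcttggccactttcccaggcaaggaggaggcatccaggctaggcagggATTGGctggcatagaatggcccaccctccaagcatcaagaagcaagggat
Cyp4f15: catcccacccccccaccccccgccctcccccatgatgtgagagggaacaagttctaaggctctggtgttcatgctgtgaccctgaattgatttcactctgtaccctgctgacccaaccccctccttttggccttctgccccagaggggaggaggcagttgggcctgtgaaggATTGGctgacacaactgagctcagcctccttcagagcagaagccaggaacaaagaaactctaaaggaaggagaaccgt
Cyp4f16: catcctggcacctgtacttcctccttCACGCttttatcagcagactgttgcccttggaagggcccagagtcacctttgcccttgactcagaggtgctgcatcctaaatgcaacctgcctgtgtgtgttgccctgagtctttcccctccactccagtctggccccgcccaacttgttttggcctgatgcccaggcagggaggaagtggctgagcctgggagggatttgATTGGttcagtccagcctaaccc
Cyp4f18: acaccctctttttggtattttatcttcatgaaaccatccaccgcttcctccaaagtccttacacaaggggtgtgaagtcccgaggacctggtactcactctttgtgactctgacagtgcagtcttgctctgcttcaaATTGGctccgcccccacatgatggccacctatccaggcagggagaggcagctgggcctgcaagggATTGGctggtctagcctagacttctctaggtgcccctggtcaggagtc

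Counting back from the start, the AHR core lay 237 bases before it in Cyp4f14 and 224 bases before it in Cyp4f16. The windows of Cyp4f15 and Cyp4f18 held none, and neither did those of the other 3 listed Cyp4f14 starts. All 4 windows shown held a CCAAT box in the ATTGG orientation, 50 bases before the start in Cyp4f14, 78 in Cyp4f15, 23 in Cyp4f16, and 113 and 48 in Cyp4f18. RefSeq windows were listed for 45 of the 55 members, as 52 windows. The AHR core was in 10 of these (19.2%), against 28.2% of all 32851 windows of this length. The CCAAT box was in 23 (44.2%), against 33.8% of all windows. The motif TTCNNNGAA, the form bound by STAT5, was in 4 (7.69%), against 7.02%. All motifs were searched on both strands, in the bases before the start only, and overlaps were allowed. A match is a run of letters, not a shown binding site.

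In rWT liver, 34 of the 55 genes fell and 3 rose (limma, adjusted p under 0.05, mean of the 4 doses against corn oil). Over all features, 20.4% were called lower and 20.3% higher, 40.7% in all. The median effect was -0.61 on the log2 scale over the 55 genes and -0.07 over all features. Without the 4 arrays, 35 fell and 3 rose, against 19.1% and 16.9% of all features (36.1% in all), with medians of -0.53 and -0.10. The 2 fits shared 28 of the falling genes. In DEL, 28 fell and 3 rose, against 17.6% and 16.7% of all features (34.3% in all), with medians of -0.43 and -0.05. In the fit without the 4 rWT arrays, 31 fell and 3 rose in DEL, with 3916 of all features lower and 3704 higher. In INS, limma called 0 of the 55 in either direction, against 0.137% lower and 0.431% higher over all features (0.568% in all), with medians of -0.02 and -0.01. Centring each array on its median gave 47 falls and 2 rises in rWT and 41 and 3 in DEL, but the background then moved too, to 10953 features lower and 2782 higher in rWT and 11649 and 2186 in DEL. At an unadjusted p under 0.05 there was 1 in INS, against 7.50% of all features. It was Cyp2j9, at -0.64 ± 0.23 (adjusted p = 0.317).

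**Figure D1:**
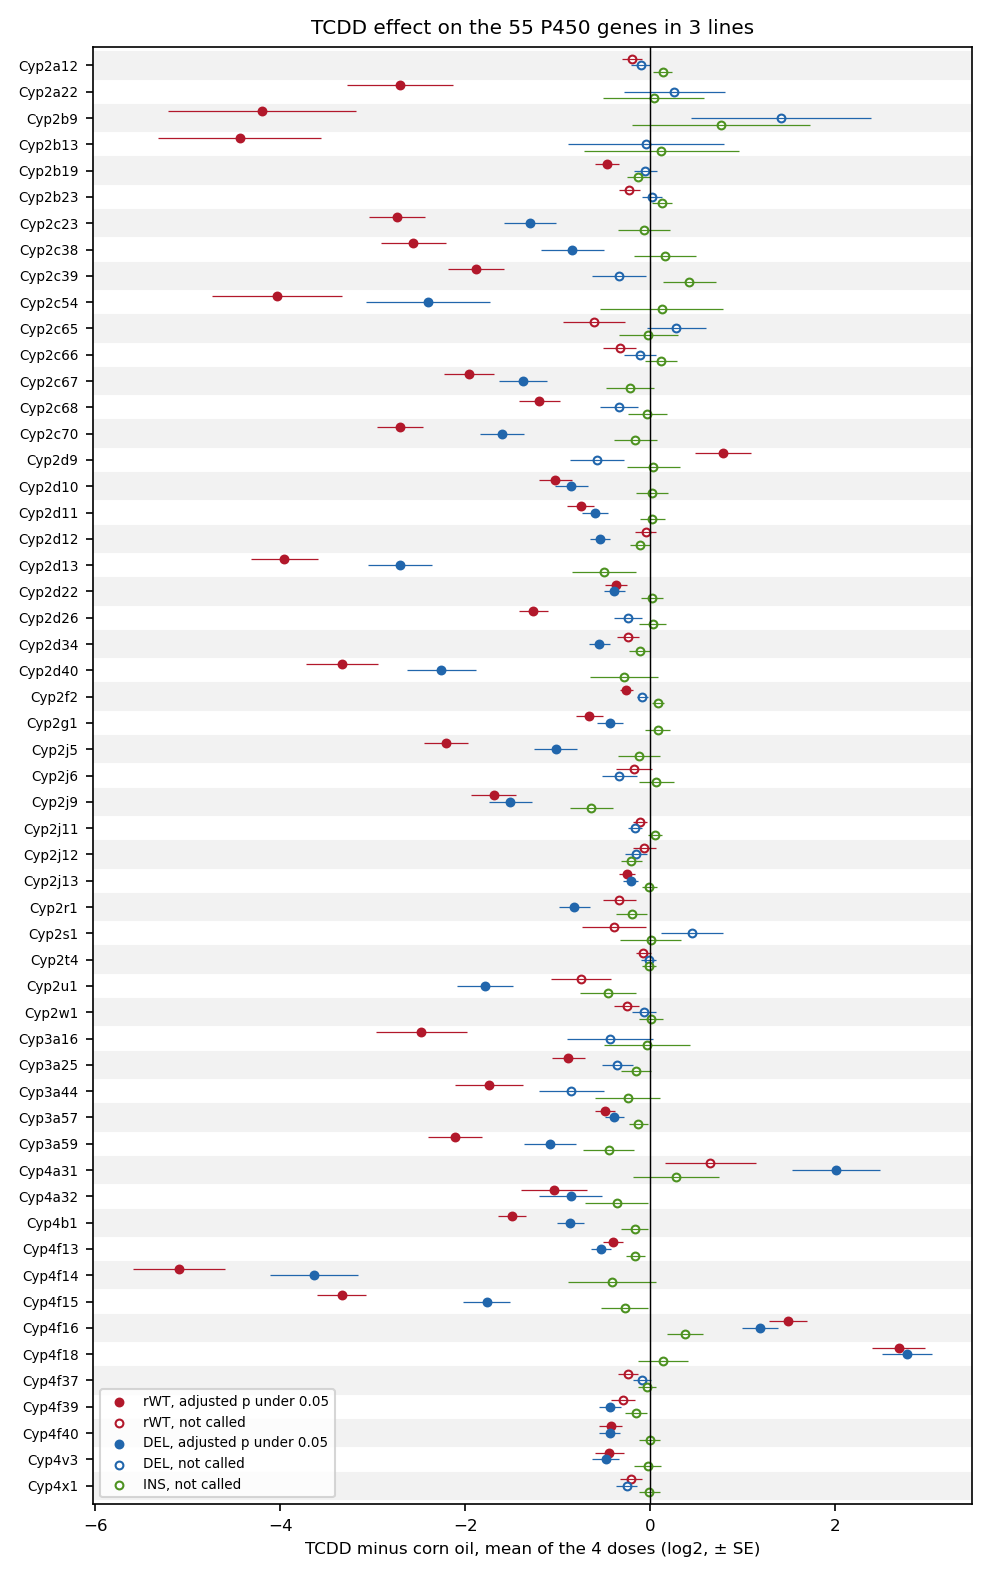
TCDD minus corn oil, averaged over the 4 doses, for each of the 55 genes (rows, in order of subfamily) in rWT (red), DEL (blue) and INS (green), on the log2 scale with the standard error of the limma fit. Filled points had an adjusted p under 0.05. In INS none is filled, and most red and blue points lie left of 0, down to -5.09 for Cyp4f14 in rWT.

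The falls were found at high and at low levels. Of the 26 members with a mean log2 value of at least 8, 20 fell in rWT (76.9%, against 26.1% of the 5069 features that bright) and 18 fell in DEL (69.2%, against 24.6%). Of the 29 dimmer members, 14 fell in rWT (48.3%, against 18.6%) and 10 in DEL (34.5%, against 15.4%). Of the 28 genes that fell in DEL, 23 also fell in rWT, which is 82.1% of the DEL list and 67.6% of the rWT list. Without the 4 arrays, 26 of the 31 did, which is 83.9% of the DEL list and 74.3% of the rWT list. The lines have separate corn oil mice. Counting genes whose treated arrays all lay below all corn oil arrays gave 8 in rWT (2.76% of all features), 12 in DEL (4.98%) and 0 in INS (0.0284%), and 30 in rWT without the 4 arrays (17.7%). All treated arrays lay above all controls for 1 member in rWT (3.97%), 2 in DEL (5.88%), 0 in INS (0.18%) and 3 in rWT without the 4 arrays (15.5%).

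Cyp4f14, which hydroxylates leukotriene B4 and fatty acids in mouse liver, had the largest fall in both lines. In rWT it read 11.17, 11.04, 10.83, 11.20 and 10.83 on the corn oil arrays. Treated arrays read 6.03, 6.07 and 6.11 at 125 µg/kg, 5.81, 4.96 and 5.43 at 250, 5.39, 6.27, 5.63 and 9.80 at 500, and 5.52 and 5.40 at 1000. All 12 treated arrays lay below all 5 controls, and the 9.80 came from replicate 4 at 500 µg/kg, 1 of the 4 arrays that go against their label. The effect was -5.09 ± 0.50 (34.1-fold lower, adjusted p = 9.76e-12), and -5.43 ± 0.62 without the 4 arrays (adjusted p = 1.72e-09).

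In DEL, Cyp4f14 read 11.06, 11.29, 11.14, 11.32 and 11.40 in corn oil. Under TCDD it read 8.82, 8.36, 6.07 and 8.10 at 125 µg/kg, 8.92, 9.002, 6.09 and 8.32 at 250, 5.66, 5.85, 9.16 and 6.20 at 500, and 8.38, 6.23, 6.89 and 9.69 at 1000. Every treated array was below every control, but the treated arrays were split, with 7 at 5.66 to 6.89, 9 at 8.10 to 9.69 and none between. The effect was -3.63 ± 0.48 (12.4-fold lower, adjusted p = 2.14e-08). In INS it was -0.41 ± 0.47 (adjusted p = 0.9999), with controls at 10.40 to 10.91 and treated arrays at 9.26 to 10.96.

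Cyp4f15, a fatty acid hydroxylase that neighbours Cyp4f14 on chromosome 17, read 11.09, 10.90, 10.84, 11.15 and 10.99 in rWT corn oil mice. The 12 treated arrays ran from 7.19 to 10.36 with a median of 7.43, all below the controls. It fell by 3.34 ± 0.27 in rWT (adjusted p = 3.29e-14), by 3.51 ± 0.28 without the 4 arrays (adjusted p = 1.37e-13) and by 1.77 ± 0.25 in DEL (adjusted p = 1.67e-07). DEL controls read 11.20 to 11.59 and DEL treated arrays 8.54 to 10.67. Cyp4f13 of the same cluster fell by 0.40 in rWT and by 0.53 in DEL, and Cyp4f40 by 0.43 and 0.44.

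**Figure D2:**
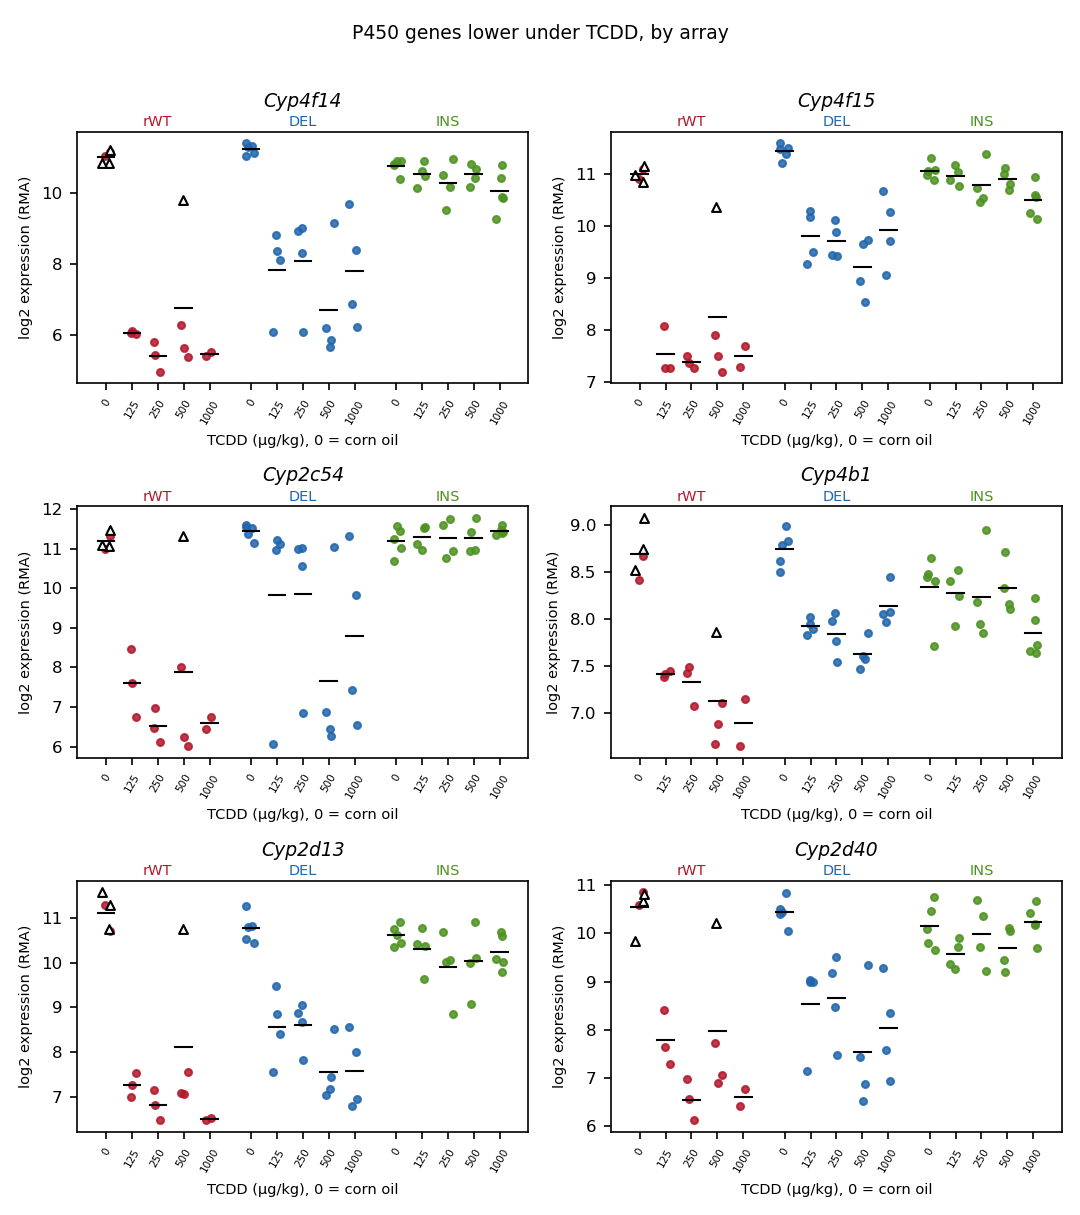
Log2 expression on each array (points) for 6 genes that fell under TCDD, by line and dose in µg/kg, with 0 for corn oil and a bar at each group mean. Open triangles are the 4 rWT arrays that go against their label. Cyp2c54 in DEL has 7 treated arrays at 6.07 to 7.43 and 9 at 9.82 to 11.33, while the INS groups stay near their controls.

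Within the Cyp2c cluster on chromosome 19, whose enzymes oxidise fatty acids, steroids, bile acids and drugs, 7 of 9 members fell in rWT and 5 of 9 in DEL. Cyp2c54 read 11.31, 11, 11.05, 11.47 and 11.09 in rWT corn oil mice. Treated rWT arrays read 6.76, 8.45 and 7.60 at 125 µg/kg, 6.48, 6.12 and 6.96 at 250, 6.01, 8.0004, 6.25 and 11.31 at 500, and 6.75 and 6.44 at 1000. Replicate 4 at 500 µg/kg thus lay in the range of the controls, and the other 11 arrays lay below it. The effect was -4.03 ± 0.70 (16.4-fold lower, adjusted p = 5.62e-06) and -4.29 ± 0.94 without the 4 arrays (adjusted p = 0.000298).

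In DEL, Cyp2c54 read 11.59, 11.37, 11.13, 11.52 and 11.55 in corn oil. Under TCDD it read 10.96, 11.20, 6.07 and 11.11 at 125 µg/kg, 10.99, 10.55, 6.84 and 11.01 at 250, 6.45, 6.26, 11.03 and 6.89 at 500, and 9.82, 6.55, 7.43 and 11.33 at 1000. The highest of the 7 low arrays (7.43) and the lowest of the 9 others (9.82) were 2.39 apart, and some of the 9 overlapped the controls. By dose, 1, 1, 3 and 2 arrays were low from 125 to 1000 µg/kg. The fitted effect of -2.40 ± 0.67 (adjusted p = 0.00379) is a mean over both sets. In INS the effect was 0.12 ± 0.67.

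Cyp2c70, which makes the mouse bile acids called muricholic acids, fell by 2.71 ± 0.25 in rWT (6.53-fold, adjusted p = 1.57e-12) and by 1.60 ± 0.24 in DEL (3.04-fold, adjusted p = 2.83e-07). Its rWT controls read 12.2 to 12.7 and its treated rWT arrays 8.80 to 11.8, with no overlap. The arachidonic acid epoxygenase Cyp2c23, also known as Cyp2c44, fell by 2.74 ± 0.30 and by 1.30 ± 0.28. Both fell by 2.92 in rWT without the 4 arrays. Cyp2c67 fell by 1.96 in rWT and 1.37 in DEL. Cyp2c38, Cyp2c39 and Cyp2c68 fell in rWT by 2.56, 1.88 and 1.20. In DEL, Cyp2c38 fell by 0.84 (adjusted p = 0.0493), a call that was lost in 15 of 21 omissions of a single DEL array. The DEL estimates for Cyp2c39 (-0.33) and Cyp2c68 (-0.34) did not pass. Cyp2c65 and Cyp2c66, which averaged 2.88 and 3.25 in rWT corn oil mice, passed in neither line.

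The Cyp2d cluster on chromosome 15 had 6 of 9 members lower in rWT and 7 of 9 in DEL. Cyp2d13 read 10.71, 11.30, 10.75, 11.30 and 11.59 on rWT corn oil arrays. The treated rWT arrays ran from 6.47 to 10.76 with a median of 7.07, and without replicate 4 at 500 µg/kg the highest was 7.55. It fell by 3.95 ± 0.36 in rWT (15.5-fold, adjusted p = 1.90e-12), by 4.05 ± 0.41 without the 4 arrays (adjusted p = 7.47e-11) and by 2.71 ± 0.35 in DEL (6.52-fold, adjusted p = 1.38e-08). DEL controls read 11.28, 10.81, 10.45, 10.83 and 10.53 and the 16 treated arrays 6.79 to 9.47, so they did not overlap.

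Cyp2d40 behaved likewise, with rWT controls at 10.86, 10.59, 10.67, 10.81 and 9.84, and treated arrays from 6.12 to 10.21 with a median of 7.01. Apart from replicate 4 at 500 µg/kg, no treated rWT array exceeded 8.40. Its effect was -3.33 ± 0.39 in rWT (adjusted p = 1.01e-09), -3.68 ± 0.49 without the 4 arrays and -2.26 ± 0.37 in DEL (adjusted p = 2.60e-06). Cyp2d26, with rWT controls at 12.89 to 13.23, fell by 1.26 in rWT, and its estimate in DEL was -0.24 (adjusted p = 0.224). Cyp2d22, often named the mouse gene nearest to human CYP2D6, fell by 0.37 in rWT and 0.39 in DEL. Cyp2d10 and Cyp2d11 also fell in both lines, by 1.02 and 0.75 in rWT and by 0.85 and 0.59 in DEL.

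Cyp2j5, an arachidonic acid epoxygenase of mouse liver and kidney, fell by 2.21 ± 0.24 in rWT (adjusted p = 1.73e-10) and by 1.02 ± 0.23 in DEL (adjusted p = 0.000362). Its rWT controls read 11.5 to 12.0 and its treated arrays 8.25 to 11.4. Cyp2j9 fell by 1.69 in rWT and 1.51 in DEL, and Cyp2j13, a dim feature, by 0.25 and 0.21. Cyp2j6, Cyp2j11 and Cyp2j12 passed in neither line with all arrays.

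Among the single-member subfamilies, Cyp2r1, a vitamin D 25-hydroxylase, read 9.48, 9.67, 9.58, 9.65 and 9.45 in DEL controls and at most 9.18 on DEL treated arrays, and fell by 0.82 ± 0.17 (adjusted p = 9.00e-05). In rWT it read 9.72, 9.92, 9.20, 9.20 and 8.33 in controls and 8.56 to 9.41 under TCDD, with an estimate of -0.33 (adjusted p = 0.127) that became -0.89 ± 0.22 without the 4 arrays (adjusted p = 0.00112). Cyp4b1, known for activating the lung toxin ipomeanol, fell by 1.496 ± 0.153 in rWT (adjusted p = 2.98e-11) and by 0.87 ± 0.15 in DEL (adjusted p = 4.08e-06). Its controls read 8.66, 8.41, 8.74, 9.07 and 8.52 in rWT, above all 12 treated arrays (6.64 to 7.86).

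Cyp2f2, which activates naphthalene, read 13.23, 13.20, 13.19, 13.20 and 13.23 in rWT controls and 12.61 to 13.13 under TCDD. Its fall of 0.26 ± 0.07 (adjusted p = 0.00160) corresponds to 1.19-fold. In DEL the estimate was -0.08 (adjusted p = 0.336). Cyp4v3, the mouse counterpart of the fatty acid hydroxylase CYP4V2, fell by 0.44 in rWT (adjusted p = 0.0190) and by 0.48 in DEL (adjusted p = 0.00851), and did not pass in rWT without the 4 arrays (-0.39, adjusted p = 0.176). Cyp2s1, known from other tissues as dioxin-responsive, was not called in any line, at -0.39 ± 0.35 in rWT, 0.45 ± 0.33 in DEL and 0.01 ± 0.33 in INS. In rWT the estimate was 0.66 ± 0.42 without the 4 arrays (adjusted p = 0.228). Its highest DEL value, 9.53 on replicate 3 at 250 µg/kg, compares with 5.74 to 6.37 on the other 3 arrays of that group.

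The hepatocyte marker list had median effects of -0.26 in rWT, -0.25 in DEL and -0.05 in INS. The largest falls in it were those of Glul (-1.48 in rWT and -1.42 in DEL) and Cps1 (-1.44 and -0.95). In rWT 5 of its 10 genes fell and 0 rose, in DEL 6 fell and 0 rose, and in INS 0 changed. Over all features, 20.4% fell in rWT, 17.6% in DEL and 0.137% in INS. The log2 of the summed hepatocyte marker level was 16.3 to 16.4 in rWT controls and 15.9 to 16.4 under TCDD, 16.3 to 16.4 and 15.9 to 16.2 in DEL, and 16.2 to 16.3 and 16.1 to 16.2 in INS. Albumin differed by 0.01 in rWT and in DEL and by 0.02 in INS. The part of hepatocyte RNA content in the P450 falls was not tested.

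Both Cyp4f genes that rose did so in rWT and DEL. Cyp4f18 is known as a leukotriene B4 hydroxylase of mouse neutrophils. It read 4.29, 3.86, 5.10, 4.61 and 4.79 in rWT controls. Treated rWT arrays read 6.68, 6.66 and 7.27 at 125 µg/kg, 7.25, 7.51 and 7.23 at 250, 7.30, 7.74, 7.15 and 4.66 at 500, and 7.85 and 8.05 at 1000. The 4.66 came again from replicate 4 at 500 µg/kg, inside the control range, and the other 11 lay above it. The effect was 2.69 ± 0.29 (6.43-fold higher, adjusted p = 7.93e-11) and 3.31 ± 0.31 without the 4 arrays (9.91-fold, adjusted p = 1.14e-11).

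In DEL, Cyp4f18 read 4.60, 5.32, 4.26, 4.98 and 5.06 in corn oil and 5.46 to 8.26 under TCDD, with no overlap. Its effect was 2.78 ± 0.27 (6.85-fold, adjusted p = 1.87e-11). In INS, controls of 4.08 to 4.64 and treated arrays of 3.80 to 5.27 overlapped (0.14 ± 0.27). Of the neutrophil marker list (S100a8, S100a9, Retnlg, Mmp8, Mmp9 and Csf3r), 6 of 6 genes rose in rWT and in DEL, and 0 in INS. The median effects of these genes were 4.40 in rWT, 2.17 in DEL and 0.18 in INS. The log2 of their summed level was 7.13 to 8.03 in rWT controls and 8.26 to 12.8 under TCDD, 7.65 to 8.23 and 9.08 to 11.8 in DEL, and 6.82 to 7.44 and 6.74 to 7.96 in INS. Of the macrophage list, 7 of 8 rose in rWT and the eighth, Clec4f, fell (-0.47), a call that was lost without the 4 arrays. In DEL 8 of 8 rose and in INS 0. Of the stellate cell list, 5 of 7 rose in rWT, 6 of 7 in DEL and 0 in INS, with median effects of 1.62, 1.83 and -0.03. Over all features, 20.3% rose in rWT, 16.7% in DEL and 0.431% in INS. The part of these cells in the rise of Cyp4f18 was not tested.

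Cyp4f16 read 5.12, 6.24, 6.596, 6.08 and 6.14 in rWT controls and 6.88 to 7.87 under TCDD, with no overlap. It rose by 1.496 ± 0.205 in rWT (2.82-fold, adjusted p = 4.34e-08), by 1.89 ± 0.29 without the 4 arrays (adjusted p = 8.04e-07) and by 1.18 ± 0.20 in DEL (2.27-fold, adjusted p = 2.77e-06). In INS the estimate was 0.37 ± 0.19 (adjusted p = 0.702). Cyp4f16 lies on chromosome 17 with Cyp4f14 and Cyp4f15, and with Cyp4f37, Cyp4f39, Cyp4f40 and Cyp4f13. Within that cluster the member that rose and those that fell are thus near neighbours.

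Cyp4a31, of the fatty acid hydroxylase subfamily 4a on chromosome 4, read 7.89, 8.03, 8.06, 7.71 and 8.08 in DEL controls and 8.36 to 11.49 under TCDD. All 16 treated arrays lay above the controls, with an effect of 2.01 ± 0.47 (4.03-fold, adjusted p = 0.000594). In rWT it read 7.84, 7.20, 10.90, 10.48 and 9.96 in controls, the last 3 being arrays that go against their label, and 8.48 to 11.50 under TCDD. With all arrays the estimate was 0.65 ± 0.49 (adjusted p = 0.296), and without the 4 it was 2.30 ± 0.61 (4.93-fold, adjusted p = 0.00248). Its neighbour Cyp4a32 differed in the other direction, by -1.03 ± 0.36 in rWT (adjusted p = 0.0174) and -0.86 ± 0.34 in DEL (adjusted p = 0.0462). Sequence shared between these paralogs, and with the excluded members of the subfamily, can spread signal between their probes.

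**Figure D3:**
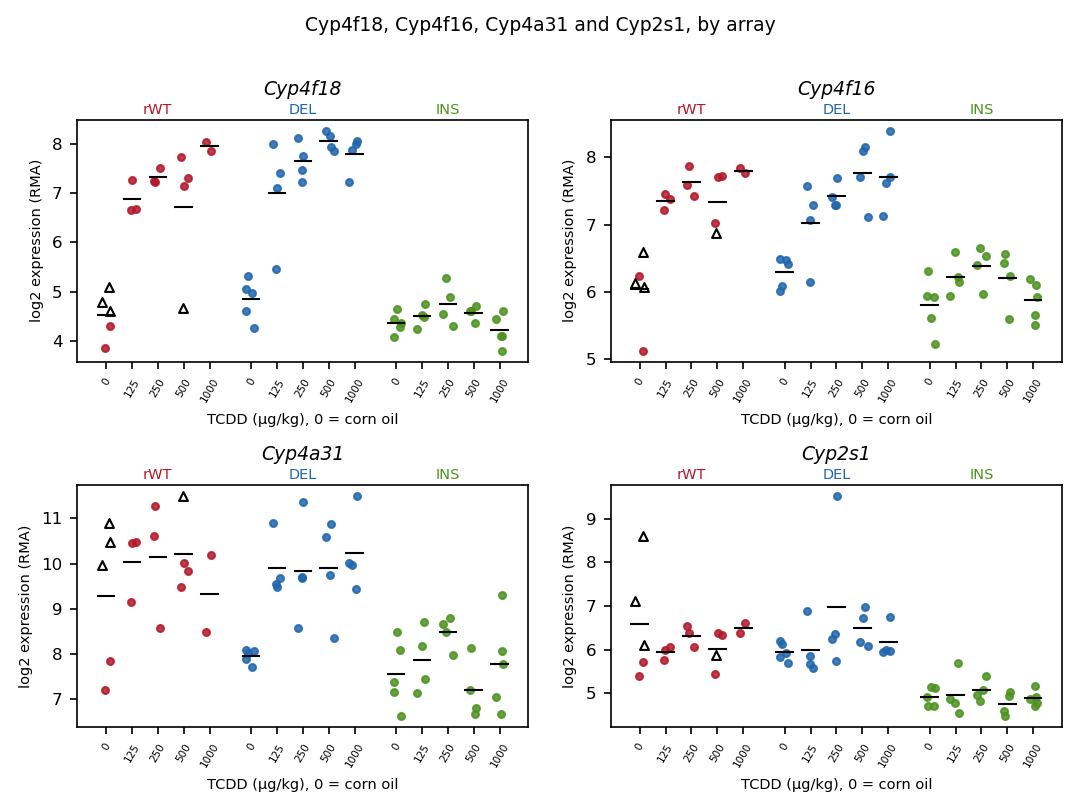
Log2 expression on each array (points) for Cyp4f18, Cyp4f16 and Cyp4a31, which rose in DEL, and for Cyp2s1, by line and dose in µg/kg, with 0 for corn oil and a bar at each group mean. Open triangles are the 4 rWT arrays that go against their label. For Cyp4a31 3 of these triangles, at 9.96 to 10.90, sit above the other 2 rWT controls at 7.20 and 7.84.

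Without the 4 arrays, 6 of the 34 falls in rWT did not pass: those of Cyp2b9, Cyp2b13 and Cyp3a44, which are known as female-biased in mouse liver, and those of Cyp2a22, Cyp4a32 and Cyp4v3. In their place, 7 others passed as falls: Cyp2b23, Cyp2d9, Cyp2j11, Cyp2r1, Cyp2u1, Cyp4f37 and Cyp4f39. The falls of Cyp2c39 and Cyp3a16, also known as female-biased, still passed without the 4 arrays. For Cyp2c39 the effect was -1.88 ± 0.30 with all arrays and -1.58 ± 0.31 without the 4 (adjusted p = 7.00e-05). With all arrays, Cyp2b13 and Cyp2b9 gave the next largest falls in rWT after Cyp4f14. Cyp2b13 read 3.34, 3.02, 10.89, 11.37 and 10.32 on the rWT controls, 11.21 on replicate 4 at 500 µg/kg and 2.53 to 4.07 on the other treated arrays. The high values are the 4 arrays with high Xist. The effect was -4.44 ± 0.88 (adjusted p = 5.11e-05) with all arrays and -0.36 ± 0.27 (adjusted p = 0.311) without them.

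Cyp2b9 read 10.04, 3.19, 12.39, 12.43 and 12.25 on the rWT controls, 12.58 on replicate 4 at 500 µg/kg and 3.86 to 8.10 on the other treated arrays. Here corn oil replicate 1 was high as well, although its Xist was in the range of the 56 arrays. The effect went from -4.20 ± 1.02 (adjusted p = 0.000729) to -1.24 ± 1.08 (adjusted p = 0.384). Cyp2b9 in DEL read 3.78 to 6.54 in controls and 4.24 to 8.38 under TCDD, with an estimate of 1.42 ± 0.97 (adjusted p = 0.272).

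Cyp3a16 and Cyp3a44, also female-biased, read 2.92, 3.21, 8.80, 8.36 and 3.20, and 6.58, 5.95, 9.10, 9.09 and 7.63, on the rWT controls. Corn oil replicate 5 was thus high for Cyp2b13 and not for Cyp3a16. Without the 4 arrays, the effect of Cyp3a16 went from -2.47 ± 0.49 to -0.37 ± 0.12 (adjusted p = 0.00924), and that of Cyp3a44 from -1.74 ± 0.37 to -0.44 ± 0.41 (adjusted p = 0.420). Cyp2a22 read 7.16, 5.46, 10.89, 11.31 and 9.29 on the controls, and its effect went from -2.71 ± 0.58 to -0.49 ± 0.45 (adjusted p = 0.404). Cyp3a25, an adult liver enzyme of the same cluster as Cyp3a16, fell in both fits, by 0.88 ± 0.18 (adjusted p = 5.04e-05) and by 1.07 ± 0.26 (adjusted p = 0.000809). Cyp3a59 fell by 2.11 ± 0.29 in rWT, by 1.87 ± 0.40 without the 4 arrays and by 1.08 ± 0.28 in DEL.

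**Figure D4:**
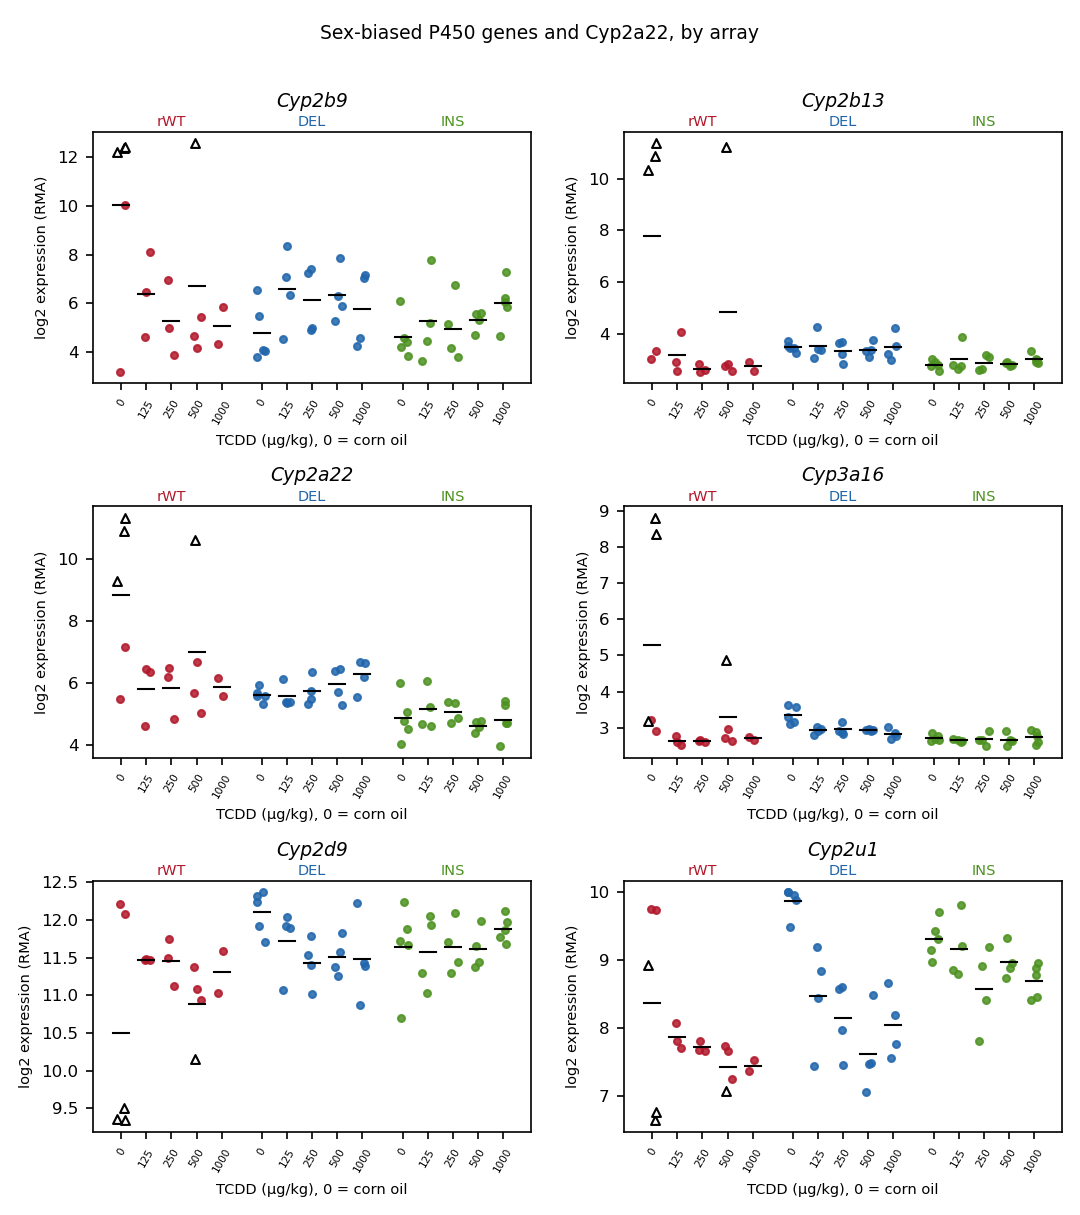
Log2 expression on each array (points) for Cyp2b9, Cyp2b13, Cyp2a22, Cyp3a16, Cyp2d9 and Cyp2u1, by line and dose in µg/kg, with 0 for corn oil and a bar at each group mean. Open triangles are the 4 rWT arrays that go against their label. They are the 4 highest rWT arrays for Cyp2b9, Cyp2b13 and Cyp2a22 and the 4 lowest for Cyp2d9.

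Cyp2d9 and Cyp2u1 are known as male-biased. Cyp2d9, a testosterone 16-alpha hydroxylase, read 12.08, 12.21, 9.51, 9.34 and 9.36 on the rWT controls, 10.15 on replicate 4 at 500 µg/kg and 10.94 to 11.75 on the other treated arrays. With all arrays it was called higher (0.78 ± 0.30, adjusted p = 0.0342), and without the 4 it was called lower (-0.80 ± 0.28, adjusted p = 0.0195). In DEL the estimate was -0.57 ± 0.29 (adjusted p = 0.124) with all arrays, and Cyp2d9 was called lower there in the fit without the 4 rWT arrays. Cyp2u1, a fatty acid hydroxylase, read 9.73, 9.74, 6.64, 6.76 and 8.92 on the rWT controls and 7.07 to 8.07 under TCDD, so controls lay on both sides of the treated arrays. Its effect was -0.75 ± 0.32 (adjusted p = 0.0573) with all arrays and -2.10 ± 0.31 (4.27-fold lower, adjusted p = 6.38e-07) without the 4. In DEL, Cyp2u1 read 10.00, 9.48, 9.87, 9.96 and 9.99 in controls and 7.06 to 9.19 under TCDD, and fell by 1.79 ± 0.31 (adjusted p = 5.23e-06).

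**Figure D5:**
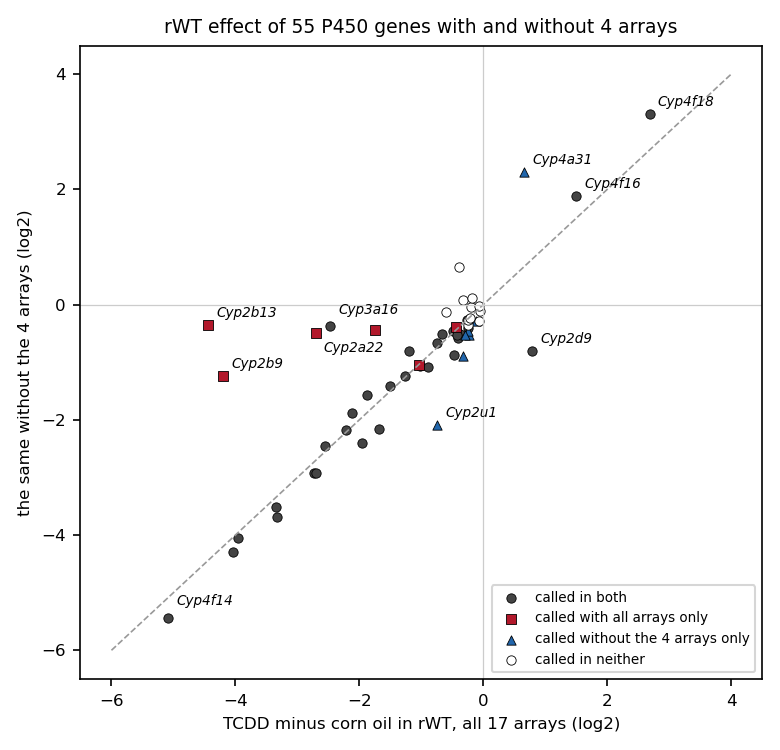
TCDD effect in rWT for each of the 55 genes with all 17 arrays (horizontal axis, log2) and without the 4 arrays that go against their label (vertical axis, log2). The dashed line marks equal values, and the shape of a point says in which of these fits the gene was called. Most points follow it, while Cyp2b13 (-4.44 and -0.36) and Cyp2b9 (-4.20 and -1.24) lie above it and Cyp2d9 (0.78 and -0.80) and Cyp2u1 (-0.75 and -2.10) below it.

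Whether the TCDD effect differs between lines was tested as a difference of the averaged effects. Comparisons with the same line share its arrays. Between INS and DEL 14 members differed, with 12 effects higher in INS (5.43% of all features) and 2 lower (8.68%). The effect of Cyp4f14 was 3.22 ± 0.67 higher in INS (adjusted p = 0.000487), that of Cyp2d13 2.21 ± 0.49 higher (adjusted p = 0.00106) and that of Cyp2d40 1.98 ± 0.52 higher (adjusted p = 0.00627). The lower ones were Cyp4f18 (-2.63 ± 0.38, adjusted p = 3.87e-06) and Cyp4f16 (-0.81 ± 0.28, adjusted p = 0.0385), the latter not passing after median centring or quantile normalization (-0.70, adjusted p = 0.0611). Cyp2c54 differed by 2.52 ± 0.94 and did not pass (adjusted p = 0.0656). In the fit without the 4 rWT arrays, which changes the shared spread, it passed (2.52 ± 0.88, adjusted p = 0.0413). There Cyp2j5, Cyp2j9, Cyp2r1, Cyp3a16 and Cyp4a31 passed as well, and Cyp2d12 no longer did.

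Between INS and rWT 28 members differed, 26 higher in INS (8.45% of all features) and 2 lower (12.5%, 20.9% in all), and without the 4 arrays 26 differed, 23 higher (10.3%) and 3 lower (12.1%). Cyp4f15 had the lowest adjusted p of these (3.06 ± 0.37, adjusted p = 3.64e-08). The differences of Cyp2b9 (4.96 ± 1.40) and Cyp2b13 (4.56 ± 1.22) did not pass without the 4 arrays.

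Between DEL and rWT 4 members differed, all higher in DEL (0.625% of all features, with 0.488% lower and 1.11% in all). These were Cyp2d26 (1.02 ± 0.22, adjusted p = 0.00648), Cyp4f15 (1.57 ± 0.37, adjusted p = 0.0169), Cyp2b9 (5.61 ± 1.41, adjusted p = 0.0282) and Cyp2a22 (2.97 ± 0.80, adjusted p = 0.0475). Without the 4 arrays there were again 4 (0.488% of all features higher), with Cyp2b19 and Cyp2c23 in place of Cyp2b9 and Cyp2a22. Leaving out only replicate 4 at 500 µg/kg gave 14. The fit on these 2 lines alone gave 0 at the adjusted threshold, with 19 at an unadjusted p under 0.05. The counts of 14, 0 and 19 have no share over all features beside them and are not read as results about the members.

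A slope on log2 dose among the treated groups was tested in each line, and limma called 0 members in each, against 0.0284% of all features in rWT (0.0237% rising and 0.00474% falling with dose), 0% in DEL and 0.0426% in INS (0.00474% rising and 0.0379% falling). At an unadjusted p under 0.05 there were 6, 5 and 1, against 3.53%, 10.7% and 6.40% of all features. Without the 4 arrays 2 members passed in rWT (0.0663% of all features), both lower with dose (0.0237%). Cyp2c38 read 9.38, 8.09 and 9.49 at 125 µg/kg, 7.43, 6.97 and 7.22 at 250, 6.89, 8.79 and 7.60 at 500 without replicate 4, and 6.83 and 4.88 at 1000. It changed by -0.88 ± 0.17 per doubling of the dose (adjusted p = 0.0153), and Cyp2d26 by -0.35 ± 0.07 (adjusted p = 0.0375). The top dose in rWT holds 2 mice.

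Corn oil levels were compared between INS and DEL. Of the 55 members 22 were lower in INS and 0 higher, against 75.5% and 0.0616% of all features, and the median difference was -0.41 over the members and -0.54 over all features. Cyp2s1 had the largest, at -1.05 ± 0.41 (4.91 in INS and 5.95 in DEL), followed by Cyp2c66 at -0.96 ± 0.21 and Cyp2w1, an enzyme best known from tumours, at -0.74 ± 0.16. After quantile normalization across all arrays limma called 0 members, with 7 at an unadjusted p under 0.05. Line and any separate processing of the lines' arrays cannot be told apart in these levels.

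Other genes of the P450 system were read from a list, of which 17 were analysed here. In rWT 11 fell and 2 rose, against 20.4% and 20.3% of all features. In DEL 8 fell and 2 rose, against 17.6% and 16.7%, and in INS 0 changed, against 0.137% and 0.431%. Without the 4 arrays 7 fell and 2 rose in rWT, against 19.1% and 16.9%. Cebpa, a transcription factor of hepatocyte genes, fell by 1.66 ± 0.16 in rWT (adjusted p = 5.14e-12) and by 1.39 ± 0.15 in DEL (adjusted p = 2.38e-10). Nfib and Stat5b, the latter a carrier of the growth hormone signal, fell by 0.88 and 0.70 in rWT and by 0.83 and 0.52 in DEL. Hnf4a, another hepatocyte transcription factor, was at 0.04 in rWT and -0.01 in DEL (adjusted p = 0.721 and 0.962). With all arrays, Ephx1, the microsomal epoxide hydrolase (0.50 and 0.39), and Cyb5a, a cytochrome b5 (0.23 and 0.27), rose in rWT and DEL. Ephx1 was still called in rWT without the 4 arrays (0.47, adjusted p = 0.0464) and Cyb5a was not (0.19, adjusted p = 0.177). Cux2, a transcription factor known as female-biased in mouse liver, turned from -0.84 (adjusted p = 0.00425) to 0.39 (adjusted p = 0.0359).

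The spread between mice of a group was above the median of all features for 42 of the 55 genes and below it for 13. Over the groups of DEL and INS, the median within-group SD was 0.32 for the members and 0.23 for all features, and it was highest for Cyp2c54 (1.38, above that of 99.97% of features). For the treated arrays, the median shift of the 26 brighter members from the line's corn oil mean ran from -0.64 to -1.88 on the rWT arrays other than replicate 4 at 500 µg/kg, where it was -0.22. On DEL arrays it ran from -0.19 to -1.32 and on INS arrays from -0.37 to 0.15. Cyp1a1 read 12.7 to 13.1 on all treated rWT and DEL arrays, replicate 4 included (13.07).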

How the data were processed

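Affymetrix arrays, 1 for each of 60 mice, measured liver RNA, and the authors deposited log2 expression values, 1 feature per gene. Per the submitters' processing notes, they used RMA with affy 1.44.0 in R 3.1.2. No source used here gives the probe-set definition, the genome build or whether lines were normalized together. The precision is limited by the number of arrays, and p-values measure the spread between mice.

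All 21115 features were fitted with no further scaling or filter, as 1 mean for each of the 15 groups, by limma's lmFit, contrasts.fit and eBayes (limma 3.58.1, R 4.3.3), with two-sided tests. Effects are the mean of the 4 TCDD groups minus corn oil, with standard errors (SE). Slopes are per doubling of the dose. Calls needed an adjusted p under 0.05 (Benjamini-Hochberg, over all features of a contrast). The fit was tested on simulated data.

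The members, gene lists and settings were chosen with earlier results of these data known. The genes named were the 5 largest falls and rises per line among called members with 1 sign at all 4 doses, the 3 largest per direction in line differences, the 2 largest slopes per direction and a fixed list of 16 genes, of which 13 had a feature. Cyp2a4, Cyp2a5 and Cyp3a41a were not analysed here. Cyp2c38, Cyp2d26 and all other members named were chosen after their values were seen. Promoters are RefSeq's (GRCm38.p6), and the CCAAT box was added after the windows were read. The alternatives were the omission of 4 rWT arrays, median centring, quantile normalization, a filter on dim features, a replicate block, separate fits and the omission of each array. A trend and robust variance moderation was chosen after seeing the data.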

Additional observations from a re-analysis of the deposited data

Results flagged for a closer look

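Of 276 groups of 4 or 5 arrays checked for an array far from the others by Dixon's criterion, 25 held one, while chance alone flags about 5% of groups. The 2 rates cannot be compared, because the same arrays recur across genes and most genes were chosen by their values. In rWT at 500 µg/kg, replicate 4 stood apart for Cyp2b13 (11.2), Cyp2b9 (12.6), Cyp2d13 (10.8) and Cyp3a16 (4.88). In rWT corn oil, replicate 2 was low for Cyp2b9 (3.19), replicate 3 high for Cyp2c66 (4.68) and replicate 5 low for Cyp2d40 (9.84). Replicates 3 to 5 of that group go against their label, and Cyp2b9 read 3.78 to 6.54 in DEL controls.

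In DEL at 125 µg/kg, replicate 3 stood apart for Cyp2c54 (6.07), Cyp2d40 (7.13), Cyp2d9 (11.1), Cyp4a31 (10.9) and Cyp2a22 (6.12), the first 3 low and the others high. In DEL at 250 µg/kg, replicate 3 was low for Cyp2c54 (6.84) and high for Cyp2s1 (9.53). In DEL at 500 µg/kg, replicate 3 was high for Cyp4f14 (9.16) and Cyp2c54 (11.03), and replicate 2 high for Cyp2c66 (4.10). Replicate 2 of DEL at 1000 µg/kg was high for Cyp2s1 (6.75), and DEL corn oil replicate 2 was low for Cyp2u1 (9.48) and Cyp3a44 (5.83). In INS, corn oil replicate 4 was low for Cyp4f14 (10.4) and Cyp4b1 (7.71) and high for Cyp3a25 (12.5), 125 µg/kg replicate 2 was high for Cyp2b13 (3.86), and 1000 µg/kg replicate 1 was high for Cyp2c66 (3.22).

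The TCDD effect differed between lines, by limma's test of the difference, for 14 members between INS and DEL, 4 between DEL and rWT and 28 between INS and rWT. INS minus DEL was -2.63 for Cyp4f18, -0.81 for Cyp4f16, 3.22 for Cyp4f14, 2.21 for Cyp2d13 and 1.98 for Cyp2d40. DEL minus rWT was 5.61 for Cyp2b9, 2.97 for Cyp2a22 and 1.57 for Cyp4f15. INS minus rWT was -2.54 for Cyp4f18, -1.12 for Cyp4f16, 4.96 for Cyp2b9, 4.68 for Cyp4f14 and 4.56 for Cyp2b13. The differences of Cyp2b9, Cyp2b13 and Cyp2a22 against rWT did not pass without the 4 arrays that go against their label.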

How the results depend on the processing

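Without the 4 rWT arrays, Cyp2d9 turned from 0.78 to -0.80 and 2 members gained a dose slope in rWT. Median centring, which moved the median effect of all features to -0.29 in rWT, -0.31 in DEL and -0.03 in INS, gave 29 differences for INS minus DEL and 1 in corn oil. Quantile normalization gave 0 in corn oil (7 unadjusted), and leaving out the dimmest 25% of features gave 13. That filter left 15836 features and so fewer members. These counts have no share over all features beside them and are not read as results about the members. For DEL minus rWT, a fit on the compared lines gave 0 (19 unadjusted), again with no share beside it.

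The replicate block gave 0 for DEL minus rWT (18 unadjusted). Deviations of same-numbered arrays correlated at a median of 0.11 in rWT, 0.02 in DEL and 0.11 in INS (other pairs -0.02, -0.01 and -0.04), with 15 of 27, 10 of 40 and 21 of 41 pairs over 0.1. Not every pair was over 0.1 (lowest -0.16, -0.59 and -0.45), so the numbers were not taken to pair samples.

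Leaving out each array in turn gave 2 to 3 rises and 32 to 37 falls in rWT, 3 and 25 to 29 in DEL, and 0 in INS. In DEL, the falls of Cyp2c38, Cyp4a32 and Cyp2j13 lost their call in 15, 11 and 9 of 21 omissions. In rWT, the rise of Cyp2d9 lost its call in 5 of 17 omissions and the fall of Cyp4v3 in 3. Dose slopes were 0 to 2 in rWT (2 without replicate 4 at 500 µg/kg, 1 without replicate 1 at 1000 µg/kg) and 0 in DEL and INS. Line differences were 9 to 19 for INS minus DEL (9 without INS corn oil replicate 2), 2 to 14 for DEL minus rWT and 27 to 32 for INS minus rWT. Corn oil differences were 17 to 23. DEL minus rWT gave 14 without rWT replicate 4 at 500 µg/kg, 9 and 8 without rWT corn oil replicates 2 and 1, 7 without DEL replicate 3 at 125 µg/kg, and 2 without any 1 of rWT corn oil replicates 3 and 4, rWT replicate 2 at 1000 µg/kg and DEL corn oil replicates 3 to 5. Trend and robust moderation gave 3 for DEL minus rWT and kept each count of calls within 1.5 times. Why the counts moved was not tested, and they have no share over all features beside them. RMA values carry no detection call, so small changes of dim members have no stated background.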

Other observations

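The split of the treated DEL arrays was shared by several members. The 7 DEL arrays with the lowest Cyp2c54 values were replicate 3 at 125 µg/kg, replicate 3 at 250, replicates 1, 2 and 4 at 500, and replicates 2 and 3 at 1000. The same 7 arrays were the 7 lowest of the 16 for 8 members, all with a mean of at least 8: Cyp2c23, Cyp2c54, Cyp2c67, Cyp2d13, Cyp2d40, Cyp2j5, Cyp2u1 and Cyp4f14. Cyp2c54 itself chose the arrays. The same held for 320 of all features (1.52%) and for 245 of those with a mean of at least 8 (4.83%), and 304 features and 0 members had the 7 as their highest. Their largest gap lay between the 7 and the 9 others for Cyp2c54 (7.43 to 9.82), Cyp4f14 (6.89 to 8.10), Cyp2c23 (10.75 to 11.60), Cyp2d40 (7.57 to 8.35) and Cyp2j5 (10.61 to 10.94). Cyp1a1 read 12.79 to 12.98 on the 7 arrays and 12.94 to 13.06 on the 9 others. These are values of single mice in labelled dose groups, and no test was made between the sets, since they were read from the outcome itself.

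Among the rWT corn oil mice, the 3 arrays with high Xist lay above both others for 10 of the 55 members (13.2% of all features) and below both for 8 (23.1%).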
